A study of Mus musculus with 28 samples.

Results

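Microglia of APOE3S/S mice that had been given tau were compared with microglia of the same genotype that had been given amyloid. The members are 6 of the 28 samples of the series, chosen by title: APOE3S/S libraries of the SAN title series, 3 labelled Tau (numbered 4, 5 and 6 in the titles) and 3 labelled Amyloid (numbered 7, 8 and 9). Their values come from separate count tables and were joined gene by gene. The genotype is labelled Christchurch for APOE3S/S mice and WT for APOE3 mice, and all cells are labelled primary microglia. For reference, the SAN title series also holds 2 APOE3S/S libraries with no treatment (numbered 2 and 3) and 9 APOE3 libraries, 3 each untreated, with tau and with amyloid. All of them are 3′ end RNA-seq libraries. The form, dose and duration of tau and amyloid, the age and sex of the mice, and whether libraries came from separate cultures were not stated in any source used here. All p-values below therefore measure only the spread between these libraries, which may be technical.

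Microglia are the macrophages of the brain, and they take up and respond to both proteins that accumulate in Alzheimer's disease: amyloid, which forms plaques outside cells, and tau, which forms tangles inside neurons. APOE is a lipid carrier that microglia secrete, and Christchurch is a rare variant of APOE3 that has been linked to resilience against tau pathology. Cytosolic DNA is sensed by cGAS, which signals through STING to interferon and interferon-stimulated genes, while NF-kB drives cytokines and NRF2 drives antioxidant enzymes. Setting tau against amyloid in 1 genotype asks which of these programmes separate the treatments when the APOE variant is held the same.

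The 6 libraries had similar depth, from 16.64 to 17.64 M counts, with 18169 to 19225 genes detected and 0.934 to 1.378% of counts from mitochondrial genes. In the 8 APOE3S/S libraries 11 of 12 microglia markers reached 1 CPM (counts scaled to a common library total) in some library, and their summed level was 6225 to 7525 CPM. Siglech, a marker of microglia in the brain, was at 0 counts in all 8. Neuron markers summed to 1.98 to 4.43 CPM with Nefl and Nefm at 0, astrocyte markers to 73.5 to 102 CPM, and oligodendrocyte markers to 220 to 259 CPM. Fibroblast and mural cell markers summed to 1175 to 1943 CPM, and border macrophage and monocyte markers to 3819 to 4762 CPM. Fn1, which is in both of those lists, was the highest gene of each, at 1167 to 1936 CPM. The granulocyte and lymphocyte markers, 10 of 16 of which were at 0, summed to 18.4 to 20.1 CPM with tau and 14.4 to 17.7 CPM with amyloid, most of it S100a8. It was the only 1 of 7 marker lists whose summed level did not overlap between tau and amyloid.

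Amyloid library 9 stood apart from the other amyloid libraries and close to libraries treated with tau. On the first principal component of log2 CPM (39.9% of the variance over 17 libraries), it lay at 40.27, while amyloid libraries 7 and 8 lay at -8.69 and 11.76. The APOE3S/S tau libraries lay at 28.60, 25.15 and 39.96 on that component, and the APOE3 tau libraries between 29.64 and 39.18. By the root mean square of log2 differences over all tested genes, the nearest library to amyloid 9 was APOE3 tau library 4, at a distance of 0.425. Its distance was 0.474, 0.569 and 0.506 to APOE3S/S tau libraries 4, 5 and 6, 0.531 to amyloid library 8 and 0.681 to amyloid library 7, so amyloid 8 was nearer than tau 5. Amyloid libraries 7 and 8 were 0.479 apart. Counts of genes called between tau and amyloid are therefore given with and without amyloid library 9. Values of some single genes are given with it only. What sets that library apart, an exchange of labels included, was not tested.

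**Figure D1:**
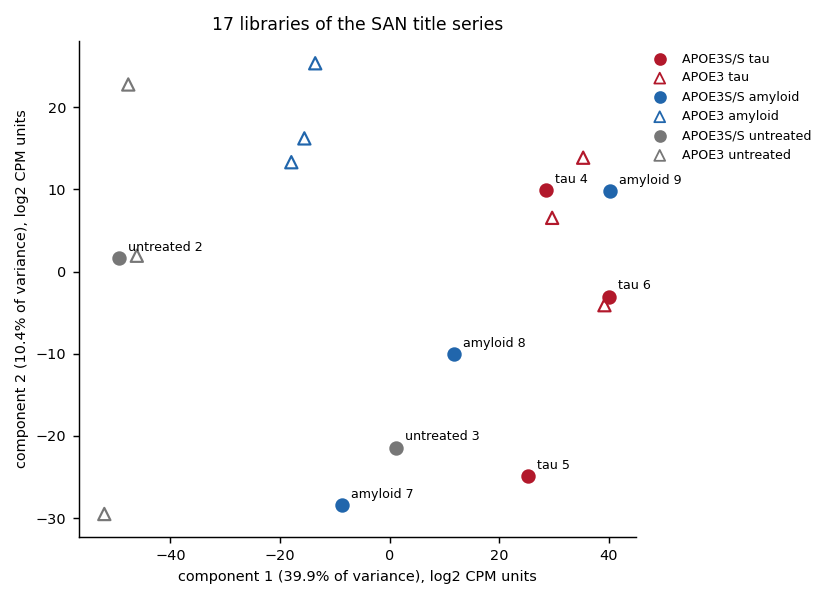
First and second principal components of log2 CPM for the 17 libraries of the SAN title series (axes in log2 CPM units with the percent of variance); filled circles are APOE3S/S libraries with their title numbers, open triangles APOE3 libraries. Amyloid 9, at 40.27 on the first component, sits among the tau libraries (25.15 to 39.96), away from amyloid 7 and 8 (-8.69 and 11.76).

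With all 6 libraries, 21 of 14136 genes were called at an adjusted p under 0.05 (0.149%), 10 higher and 11 lower with tau. The higher genes included Cd14, an innate immune co-receptor, Slc16a3, a lactate exporter, and Tgm2, a transglutaminase. The lower genes included the microglia gene Fcrls, Hdac9, a histone deacetylase, and Gatm, the first enzyme of creatine synthesis. Absolute log2 fold changes were 0.52 to 1.72, and 9 of the 21 genes passed 2-fold. Without amyloid library 9 the count was 452 of 14046 (3.22%), 245 higher and 207 lower with tau, 200 of them beyond 2-fold, and all 21 genes were among them. Tests were edgeR quasi-likelihood F tests with Benjamini-Hochberg adjustment, fitted on all 17 libraries, and standard errors (SE) and adjusted p-values below are from that fit unless stated. The count was 7 without tau library 5, 0 without tau library 6 (850 genes at an unadjusted p under 0.05), 1 without amyloid library 7 and 2 without amyloid library 8. DESeq2 called 159 genes, the 21 included, and a fit of the 8 APOE3S/S libraries alone called 0. None of the 21 calls held without each of the 6 libraries in turn, although all 21 kept their direction under every alternative.

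In the 452 genes called without it, amyloid library 9 was placed between the treatments. It had no part in the fit that chose them. It was left out because it lay close to tau libraries, so its position describes that closeness again and is no separate test of it. It was nearer the tau mean than the mean of amyloid 7 and 8 in 378 of 452 genes (83.6%). That held for 212 of 245 genes higher with tau and 166 of 207 lower with tau. On a scale where 0 is the mean of amyloid 7 and 8 and 1 is the tau mean, its median position was 0.88 (quartiles 0.64 and 1.12). A library left out of a fit can also fall short of its own group. In 422 genes called without amyloid 9 and tau 5, tau 5 was nearer the mean of tau 4 and 6 in 337. Its median position was 0.73, with 1 as the mean of tau 4 and 6. Amyloid library 9 lay within or beyond the range of the tau libraries in 267 of the 452 genes, and within or beyond that of amyloid 7 and 8 in 18. In the 21 genes called with it, a choice in which it took part, its position ran from -0.48 in Maff and Arhgef10l to 0.53 in Tgm2, and it was 0.45 to 0.50 in Ets2, Fam214a, Fcrl1, Abcd2 and Hdac9.

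**Figure D2:**
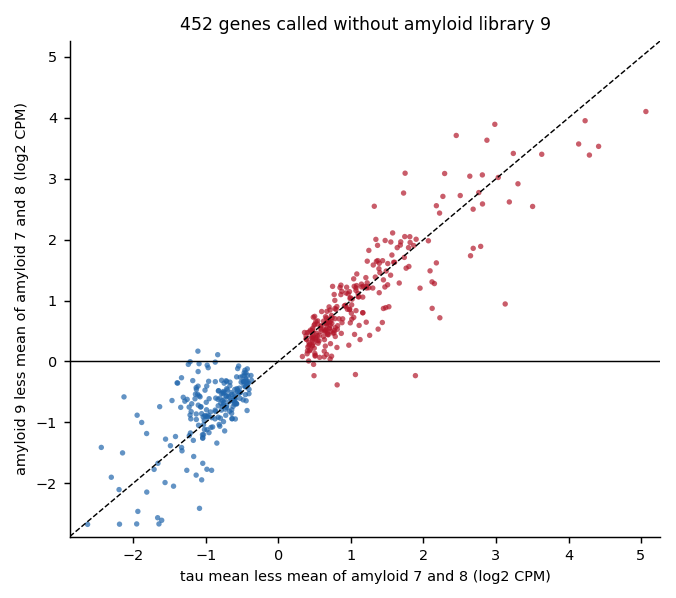
Each point is 1 of the 452 genes called without amyloid library 9 (red, higher with tau; blue, lower). The x axis is the tau mean and the y axis amyloid 9, each less the mean of amyloid 7 and 8 in log2 CPM; on the horizontal line library 9 equals amyloid 7 and 8, and on the dashed diagonal it equals the tau mean. Most points follow the diagonal, with 378 of 452 nearer the tau mean.

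Among the genes that rose with tau, Slc16a3, which exports the lactate made by glycolysis (GRCm38, chr11:120948480-120960868), had 82.1, 73.1 and 92.3 CPM in tau libraries 4, 5 and 6 and 50.2, 43.6 and 55.5 CPM in amyloid libraries 7, 8 and 9. The groups did not overlap, and untreated libraries, at 49.6 and 42.5 CPM, lay with amyloid. The log2 fold change was 0.73 (SE 0.10, adjusted p = 0.0124), and 0.82 (SE 0.11, adjusted p = 0.0017) without amyloid library 9. Ralgds, an exchange factor that links RAS to RAL signalling (chr2:28513125-28553081), had 130, 120 and 138 CPM with tau and 64.7, 66.5 and 79.9 CPM with amyloid, 1.84-fold higher (adjusted p = 0.0153). Tgm2, which cross-links proteins and is also counted among markers of alternative macrophage activation (chr2:158116402-158146436), had 53.2, 47.5 and 59.7 CPM against 21.6, 24.2 and 36.2 CPM. Its highest amyloid value was that of library 9, and its fold rose from 1.96 to 2.34 without it.

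Cd14, the co-receptor that hands lipopolysaccharide and amyloid to Toll-like receptors, had 641, 811 and 884 CPM with tau and 423, 321 and 321 CPM with amyloid, while untreated libraries had 503 and 293 CPM. Its log2 fold change was 1.14 (SE 0.19, adjusted p = 0.0258), and 1.07 (SE 0.22, adjusted p = 0.0154) without amyloid library 9. Here amyloid library 9 had the same value as library 8. Ier3, an early response gene of NF-kB signalling, had 83.9, 94.7 and 117 CPM against 36.6, 45.1 and 55.4 CPM, and the transcription factor Ets2 had 98, 89.4 and 136 CPM against 40.2, 38.0 and 61.6 CPM. Arg2, the mitochondrial arginase, was 2.03-fold higher with tau (24.9 ± 4.96 against 12.3 ± 2.09 CPM, mean ± SD, n = 3 each). Sdc4, a heparan sulfate proteoglycan of the cell surface, was 1.63-fold higher (68.3 ± 4.14 against 41.9 ± 1.89 CPM). Heparan sulfate proteoglycans are known binding sites for tau and APOE. The small MAF protein Maff had 7.15, 8.21 and 9.83 CPM with tau and 4.70, 4.67 and 3.60 CPM with amyloid. Its untreated values, 6.63 and 7.19 CPM, were nearer tau than amyloid, unlike those of the genes above. Arhgef10l, a guanine nucleotide exchange factor, was the 10th gene, with a log2 fold change of 0.57, and 0.5 without library 9.

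Among the genes that fell with tau, Gatm (chr2:122594467-122611303) had 21.3, 19.5 and 19.9 CPM with tau and 41.0, 54.1 and 47.5 CPM with amyloid, a log2 fold change of -1.23 (SE 0.15, adjusted p = 0.00696). Amyloid library 9 lay between libraries 7 and 8, and the estimate without it was again -1.23. Untreated libraries had 26.1 and 42.5 CPM, above every tau library. Fcrls, an Fc receptor-like gene used to tell microglia from other macrophages (chr3:87250758-87263738), had 23.0, 27.3 and 22.7 CPM with tau against 50.9, 44.2 and 44.6 CPM with amyloid and 46.1 and 44.4 CPM untreated. Its log2 fold change was -0.94 (SE 0.12, adjusted p = 0.00696), and -0.97 (SE 0.14, adjusted p = 0.00203) without library 9. In bulk RNA, fewer cells of a type and less RNA per cell cannot be told apart for such marker genes.

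Hdac9 (chr12:34047580-34917095) had 14.9, 11.2 and 11.2 CPM with tau and 30.1, 29.0 and 19.4 CPM with amyloid, library 9 being the lowest. It was 2.11-fold lower with tau, and 2.38-fold lower without library 9. Cd244a, an immune receptor of the SLAM family, had 14.8, 12.0 and 10.1 CPM against 23.0, 20.6 and 23.8 CPM, and untreated libraries had 22.8 and 23.0 CPM. Nrp1, a co-receptor for semaphorins and VEGF, had 110, 86.5 and 105 CPM against 174, 191 and 147 CPM. Folr2, a folate receptor of tissue-resident macrophages, had 4.27, 5.31 and 5.36 CPM against 10.7, 9.10 and 9.56 CPM. The largest estimate was that of the low Fc receptor-like gene Fcrl1, at 3.06, 2.18 and 1.79 CPM with tau and 9.18, 9.10 and 4.96 CPM with amyloid (log2 fold change -1.72, SE 0.29). Without library 9 the log2 fold change of Fcrl1 was -1.96. The other genes that fell were Cyp4f18, a fatty acid hydroxylase, Fam214a, Ap1s2, an adaptor subunit of vesicle transport, and Abcd2, a peroxisomal fatty acid transporter, with log2 fold changes of -1.05, -1.14, -0.52 and -0.63.

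**Figure D3:**
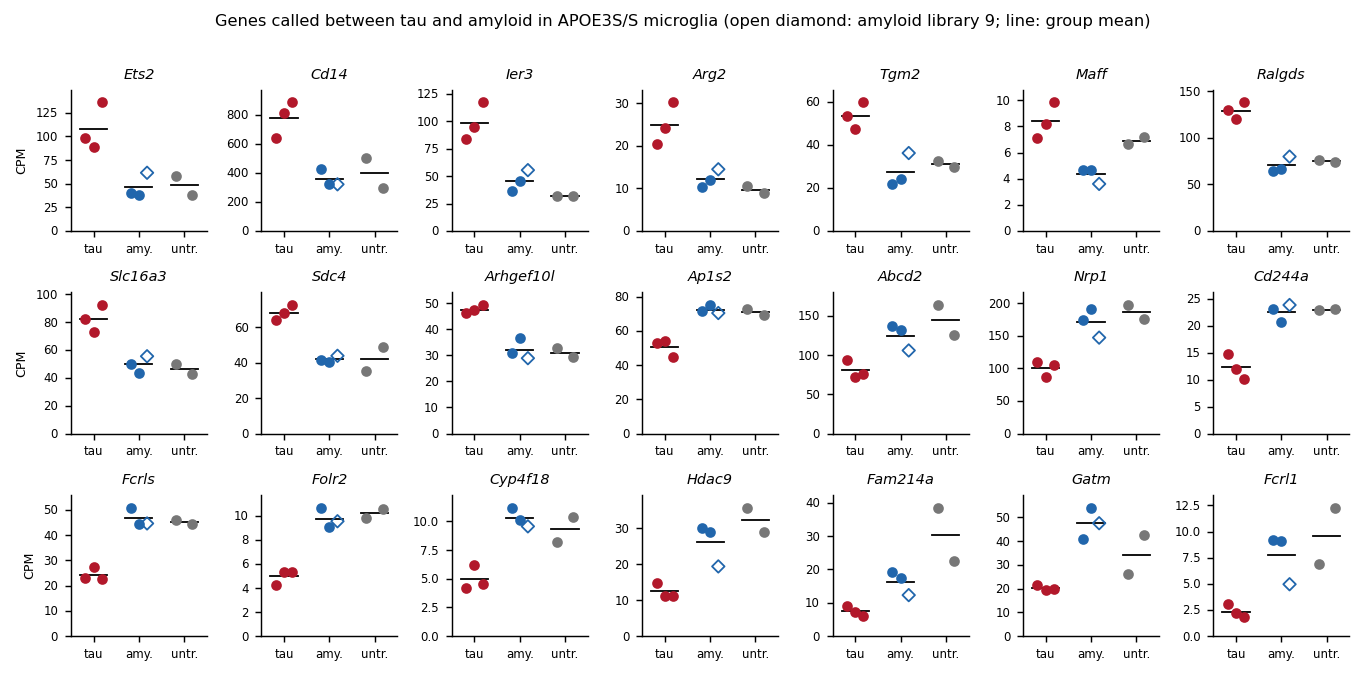
CPM (y axis, from 0) of the 21 called genes in each APOE3S/S library by treatment (x axis), from the highest to the lowest log2 fold change; lines are group means and the open diamond is amyloid library 9. The 3 tau libraries do not overlap the 3 amyloid libraries in any panel, and untreated libraries mostly lie with amyloid.

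In all 21 genes the tau libraries did not overlap the amyloid libraries, which was also true of 1781 of 14136 tested genes (12.6%), 838 above and 943 below. Against untreated libraries, 20 of the 21 were called with tau, in a comparison that called 663 genes (4.69%, 335 higher and 328 lower). Maff, at 0.34 on the log2 scale, was the exception. The same 2 untreated libraries serve the comparison of amyloid, in which no gene was called (0%) by edgeR or limma-voom, 26 were called by DESeq2 and 1653 had an unadjusted p under 0.05. Of the 21 genes, 4 were at an unadjusted p under 0.05 there. Those were Fam214a, Gatm, Ier3 and Maff, at log2 fold changes of -0.84, 0.51, 0.57 and -0.62 with amyloid. Without amyloid library 9, amyloid against untreated called no gene by edgeR, and 991 had an unadjusted p under 0.05. The 2 untreated libraries were themselves far apart, at -49.34 and 1.18 on the first component. Tau against untreated called 7 genes without untreated library 2, 1536 without untreated library 3, 395 without tau library 4 and 20 without tau library 6. Amyloid against untreated called 861 without untreated library 3.

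Inflammatory genes and NF-kB targets were the list with the most genes called once amyloid library 9 was left out. Of 46 tested, 41 were higher with tau and none was called with all libraries, with a median log2 fold change of 0.55 against 0.00 over all genes. The mean log2 CPM of the list was 5.95, 6.02 and 6.44 in the tau libraries, 4.6 and 5.06 in amyloid 7 and 8, and 6.10 in amyloid 9. Without amyloid 9, 23 of the 46 were called, all higher with tau, with a median of 0.90, beside 3.22% of all genes. In each of those 23 genes amyloid 9 was nearer the tau mean, as in 83.6% of the 452 genes called without it. Cxcl3, a neutrophil chemokine (chr5:90786103-90789600), had 88.6, 103 and 178 CPM with tau and 4.99, 6.94 and 63.5 CPM with amyloid. Its log2 fold change was 2.31 (SE 0.71, adjusted p = 0.257), and 4.37 (SE 0.56, adjusted p = 0.00128) without library 9, which was above the other amyloid libraries but below every tau library.

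Il1b, which encodes the cytokine interleukin-1 beta (chr2:129364570-129371139), had 234, 213 and 422 CPM with tau and 66.0, 58.1 and 152 CPM with amyloid, while untreated libraries had 16.4 and 37.3 CPM. Neither tau nor amyloid libraries overlapped the untreated ones or each other. Its adjusted p was 0.139, and 0.00598 without library 9 (log2 fold changes 1.66 and 2.23). Tnf had 45.3, 51.8 and 57.3 CPM against 19.2, 27.6 and 56.3 CPM, so that library 9 lay within the tau range (adjusted p = 0.627, and 0.045 without it). Nos2, the inducible nitric oxide synthase, had 8.41, 6.26 and 15.6 CPM against 0.17, 0.778 and 7.79 CPM. Tlr2, a receptor that also binds amyloid fibrils, had 727, 707 and 800 CPM against 412, 470 and 614 CPM, with the narrowest gap of these genes (log2 fold change 0.76 without library 9, adjusted p = 0.0105).

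Genes of prostaglandin metabolism differed in both directions once library 9 was left out. Ptges and Ptgs2 make prostaglandin E and its precursor, and Hpgd degrades prostaglandins. Without library 9, Ptges (126, 134 and 204 CPM against 16.9 and 32.3 CPM) and Ptgs2 (19.4, 16.5 and 26.2 CPM against 2.10 and 2.69 CPM) were higher with tau. Library 9 had 134 CPM of Ptges and 20.4 CPM of Ptgs2, inside the tau range for both. Hpgd (chr8:56294585-56321043) was lower with tau, at 12.1, 15.5 and 8.34 CPM against 98.1 and 53.2 CPM, a log2 fold change of -2.66 (SE 0.33, adjusted p = 0.00128). Library 9 again lay inside the tau range, at 11.3 CPM, and with it the estimate was -2.19 (adjusted p = 0.139). Hpgds, a synthase of prostaglandin D, and Slco2b1, an organic anion transporter, were also lower without library 9 (log2 fold changes -0.78 and -2.41). Of the 20 genes of the list, 5 were called without library 9, beside 3.22% of all genes.

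NRF2 antioxidant genes were called in 1 direction once amyloid 9 was left out, and that library lay near the tau level in them. Of 27 tested, 24 were higher with tau and none was called with all libraries (median log2 fold change 0.36). Without library 9, 14 were called beside 3.22% of all genes, all higher with tau, and the median was 0.62. The median position of library 9 in those 14 was 1.03 on the scale given above, beside 0.88 over the 452 genes called without it. Promoters are shown for Gclm, a subunit of glutamate-cysteine ligase, Txnrd1, thioredoxin reductase, and Srxn1, sulfiredoxin, because members of the list differed together. Each is the 250 bases before a start listed by RefSeq (GRCm38.p6, + strand), with matches to the core of the antioxidant response element (TGACNNNGC, either strand) and to TGANTCA, the AP-1 motif, in capitals:
Gclm, chr3:122245307-122245556: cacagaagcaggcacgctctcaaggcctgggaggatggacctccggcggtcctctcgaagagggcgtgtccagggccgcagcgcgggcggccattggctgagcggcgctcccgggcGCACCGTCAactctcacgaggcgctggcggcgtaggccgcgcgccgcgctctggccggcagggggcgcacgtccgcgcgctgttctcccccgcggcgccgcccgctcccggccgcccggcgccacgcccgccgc
Txnrd1, chr10:82858956-82859205, the 2nd of 3 starts listed: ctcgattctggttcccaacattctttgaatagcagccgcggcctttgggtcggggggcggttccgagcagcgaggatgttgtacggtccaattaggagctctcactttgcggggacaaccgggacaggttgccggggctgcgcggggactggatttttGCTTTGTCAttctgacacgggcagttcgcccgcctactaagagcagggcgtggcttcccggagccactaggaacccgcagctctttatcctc
Srxn1, chr2:152105274-152105523: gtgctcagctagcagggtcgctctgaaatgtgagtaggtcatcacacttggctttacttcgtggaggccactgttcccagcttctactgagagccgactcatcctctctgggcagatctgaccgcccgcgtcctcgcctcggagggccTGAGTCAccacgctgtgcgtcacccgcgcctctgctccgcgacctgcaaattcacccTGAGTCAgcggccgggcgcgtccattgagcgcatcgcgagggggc
The core, on the opposite strand, begins 134 bases before the start in Gclm and 92 bases before it in Txnrd1, and Srxn1 holds 2 matches to TGANTCA. At the other listed starts of Txnrd1 neither motif was found. The core was found in 6 of the 22 list members with a listed promoter (27.3%), in 14% of the 10079 tested genes with one and in 11.5% of all 27025 genes, counting any start. TGANTCA was found in 3 of the 22 (13.6%), in 5.72% of those tested genes and in 7.82% of all. Neither motif was particular to the list. Of the 21 genes called with all libraries, 17 had a listed promoter. The core was found in 7 of these (41.2%) and TGANTCA in 5 (29.4%). A match is a description of the letters only.

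Nqo1, a quinone reductase and standard NRF2 target (chr8:107388225-107403206), had 24.0, 25.6 and 25.2 CPM with tau, 6.97 and 8.38 CPM in amyloid 7 and 8 and 30.5 CPM in amyloid 9. Library 9 was above every tau library, and untreated libraries had 3.97 and 5.32 CPM. The log2 fold change was 0.71 (SE 0.37, adjusted p = 0.58) with library 9 and 1.70 (SE 0.17, adjusted p = 0.000344) without it. Gclm had 119, 107 and 131 CPM against 40.6, 46.9 and 139 CPM. Txnrd1 had 266, 243 and 311 CPM against 127, 126 and 267 CPM, and Srxn1 had 150, 154 and 175 CPM against 78.8, 68.9 and 156 CPM. In these 3 genes amyloid 7 and 8 were below every tau library and library 9 was not. Without library 9 their log2 fold changes were 1.45, 1.11 and 1.11. Slc7a11, the cystine importer that feeds glutathione synthesis, had the largest difference of the list, at 179, 104 and 235 CPM with tau and 22.1, 37.0 and 192 CPM with amyloid. Prdx6, a peroxiredoxin, differed from these, since library 9 stayed below the tau range: 141, 160 and 146 CPM against 72.0, 75.1 and 120 CPM, with an adjusted p of 0.118 with library 9 and 0.00128 without it.

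Most glycolysis and HIF genes were higher with tau, and amyloid 9 lay below the tau libraries in the list's mean. Of 24 tested, 21 were higher, 17 had all tau libraries above all amyloid libraries (5.93% of all genes), and Slc16a3 was called. The list's mean log2 CPM was 6.61, 6.59 and 6.69 with tau and 6.28, 6.20 and 6.32 with amyloid, below every tau library. Leaving library 9 out gave 9 calls, all higher, beside 3.22% of all genes: Slc16a3, Slc2a1, Pfkl, Hif1a, Eno1, Pgam1, Pkm, Aldoa and Pgk1. In 6 of those 9 genes library 9 was nearer the tau mean than the mean of amyloid 7 and 8 (median position 0.54). Over the 452 genes called without it, that share was 83.6% and the median position 0.88. The list's median log2 fold change was 0.36 with library 9 and 0.44 without it. Slc2a1, the main glucose transporter, had 105, 96.3 and 117 CPM against 59.9, 60.0 and 91.1 CPM. Hif1a, the transcription factor stabilised in low oxygen, had 346, 243 and 361 CPM against 165, 176 and 237 CPM (log2 fold change 0.72, adjusted p = 0.107, and 0.89, adjusted p = 0.00557, without library 9).

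Matrix proteases and their inhibitors followed. None of 21 was called with all libraries and 8 had all tau values above all amyloid values, beside 5.93% of all genes. Without library 9, 6 of 21 were called beside 3.22% of all genes: 5 were higher (Mmp3, Mmp9, Serpinb2, Mmp8 and Mmp2) and Timp2 was lower. Mmp9, gelatinase B, had 80.3, 81.4 and 137 CPM with tau against 21.3, 28.7 and 57.7 CPM with amyloid (log2 fold change 1.48, adjusted p = 0.16, and 2.00, adjusted p = 0.0106, without library 9). Mmp8, neutrophil collagenase, had 166, 127 and 190 CPM against 99.9, 93.6 and 101 CPM, with library 9 close to library 7.

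**Figure D4:**
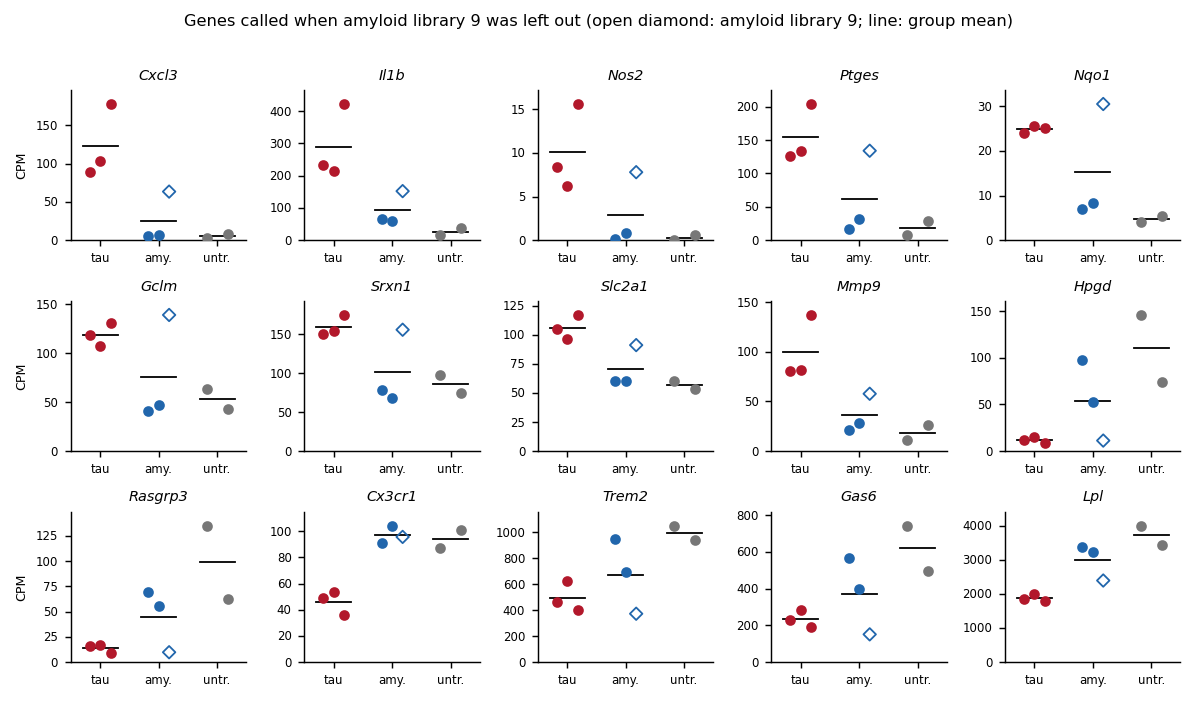
CPM (y axis, from 0) of 15 genes called when amyloid library 9 was left out, in each APOE3S/S library by treatment (x axis); lines are means of all libraries of a group and the open diamond is amyloid library 9. In Nqo1 and Gclm the diamond lies above the tau libraries, in Hpgd and Rasgrp3 it lies at the tau level, and in Slc2a1, Mmp9 and Lpl it lies between the groups.

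Of 22 homeostatic microglia genes tested, 9 were higher and 13 lower with tau, with a median log2 fold change of -0.07. Fcrls was called, 1 of 22 beside 0.149% of all genes. Cx3cr1, the fractalkine receptor (chr9:119901616-120069879), had 48.7, 53.8 and 35.9 CPM with tau and 90.6, 104 and 95.6 CPM with amyloid, at a log2 fold change of -1.07 (SE 0.21, adjusted p = 0.058). Library 9 lay between libraries 7 and 8, and without it the estimate was the same and the adjusted p was 0.0201. P2ry12, the purinergic receptor of resting microglia, had 24.2, 16.1 and 22.8 CPM against 21.4, 30.8 and 28.9 CPM, and the groups overlapped (adjusted p = 0.601). Without library 9, 5 of 22 were called beside 3.22% of all genes, all lower, among them Fcrls, Gpr34, Mef2c and Cx3cr1. Another 8 of the 22 were higher with tau in that fit, none of them called. The microglia marker Tmem119 was 1 of these, at a log2 fold change of 1.15 (SE 0.36, adjusted p = 0.111). With library 9 it was 0.56 (adjusted p = 0.712).

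Of 29 disease-associated microglia genes, 22 were lower with tau and none was called (median log2 fold change -0.13). Without library 9, 5 were called lower and 1 higher, beside 3.22% of all genes, with a median of -0.27. Trem2, the lipid and APOE receptor that drives this state, had 464, 622 and 400 CPM with tau and 948, 694 and 372 CPM with amyloid, library 9 being the lowest of all 6 (adjusted p = 0.625, and 0.0378 without it). Lpl, lipoprotein lipase, had 1845, 1990 and 1779 CPM against 3388, 3235 and 2393 CPM, with no overlap (log2 fold change -0.68, adjusted p = 0.196, and -0.82, adjusted p = 0.0249, without library 9). Gas6, a bridging ligand for engulfment receptors, had 229, 284 and 192 CPM against 568, 400 and 151 CPM. It is not in this list but in that of lysosome and phagocytosis. The mouse Apoe entry had 9.80, 13.2 and 8.10 CPM against 18.2, 15.0 and 8.32 CPM and was not called with or without library 9 (adjusted p = 0.657 and 0.0979). Whether this entry reads the APOE3S/S allele was not tested.

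Genes outside the lists that were lowest with tau without library 9 included Rasgrp3, a RAS activator of lymphoid and myeloid cells (chr17:75435896-75529054), at 15.7, 17.4 and 9.06 CPM against 69.2 and 55.7 CPM. Library 9 had 9.74 CPM, within the tau range. Pde1c, a phosphodiesterase of cyclic nucleotides, was lower too, with a log2 fold change of -2.27 and an adjusted p of 0.00252. Ccr2, the chemokine receptor of monocytes, had 20.5, 12.7 and 12.5 CPM with tau against 59.9, 72.4 and 23.4 CPM with amyloid, and untreated libraries had 14.5 and 52.7 CPM. Its log2 fold change was -1.77 (adjusted p = 0.247), and -2.12 (adjusted p = 0.0373) without library 9. The 16 markers of border macrophages and monocytes, which include Ccr2, summed to 3819 to 4664 CPM with tau and 4225 to 4754 CPM with amyloid and overlapped.

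Cell cycle genes were lower with tau in 31 of 32 tested, yet none was called with all libraries. Their median log2 fold change was -0.38 with all libraries and the same without library 9. The list's mean log2 CPM was 3.86, 3.51 and 3.50 with tau and 3.99, 4.27 and 4.02 with amyloid, library 9 lying with the other amyloid libraries. Of the untreated libraries, library 2 (3.61) lay in the tau range and library 3 (4.24) in the amyloid range. In 11 of the 32 all tau libraries were below all amyloid libraries, as in 6.67% of all genes. Ccnd1, cyclin D1, had 21.8, 16.4 and 22.8 CPM against 33.7, 40.2 and 36.9 CPM (log2 fold change -0.86, adjusted p = 0.0872), and Ccna2, cyclin A2, had 6.13, 4.25 and 2.86 CPM against 10.4, 13.5 and 7.62 CPM. Without library 9, 6 of 32 were called beside 3.22% of all genes, all lower: Ccnb1, Ccnd1, Ccna2, Cdc20, Stmn1 and Plk1. Mki67 was not among them and overlapped, at 46.8, 27.1 and 45.1 CPM against 24.2, 39.7 and 55.5 CPM. Ribosomal protein genes were lower with tau in 26 of 28 and mitochondrial transcripts in 13 of 14, at medians of -0.13 and -0.23, with no call in either list with or without library 9. Without library 9 the medians were -0.24 and -0.19. All tau libraries were below all amyloid libraries in 0 of 28 ribosomal and 8 of 14 mitochondrial genes, beside 6.67% of all genes. In mean log2 CPM both lists overlapped between tau and amyloid. Tau library 5, which had the lowest share of mitochondrial counts (0.934%), was the lowest of the 6 in the mitochondrial list.

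In 56 of 57 interferon-stimulated genes tested, tau and amyloid libraries overlapped in APOE3S/S microglia. Over all tested genes, 12.6% did not overlap. Of the 57, 35 were higher with tau, the median log2 fold change was 0.04, and none was called with library 9 or without it (median 0.16). The list's mean log2 CPM was 8.03, 8.01 and 8.16 with tau and 7.55, 8.12 and 8.27 with amyloid, so the highest of the 6 values was that of amyloid library 9 and the lowest that of amyloid library 7. Untreated library 2 had 5.66 and untreated library 3 had 7.83. Isg15, a ubiquitin-like interferon target, had 284, 385 and 352 CPM with tau and 191, 309 and 381 CPM with amyloid. Irf7, the transcription factor that amplifies interferon, had 1203, 1400 and 1387 CPM against 999, 1340 and 1392 CPM. For both genes untreated library 2 (27.6 and 197 CPM) lay far below untreated library 3 (246 and 1224 CPM). Their log2 fold changes of tau against amyloid were 0.22 (SE 0.47) and 0.10 (SE 0.40), errors that leave differences in either direction within reach. The gene without overlap was Ifi204, an interferon-inducible DNA sensor, at 517, 504 and 537 CPM with tau and 593, 719 and 586 CPM with amyloid (adjusted p = 0.814). The chemokine Cxcl10 had 89.4, 96.6 and 117 CPM against 16.3, 51.6 and 104 CPM (adjusted p = 0.767).

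The genes of cGAS and STING overlapped between the treatments. Mb21d1, the gene of cGAS, had 33.6, 24.9 and 33.6 CPM with tau and 21.4, 33.5 and 33.6 CPM with amyloid. Tmem173, the gene of STING, had 70.6, 62.6 and 65.1 CPM against 65.5, 74.0 and 78.3 CPM. Ifnb1, interferon beta, was near the detection limit, at 0.774 to 1.5 CPM with tau and 0.453 to 0.827 CPM with amyloid. Of 24 genes of the pathway none was called with all libraries (median log2 fold change -0.02). Without library 9, 2 were called, both lower, beside 3.22% of all genes. These were Nlrc3, an inhibitor of STING signalling, at a log2 fold change of -1.11, and Enpp1, the enzyme that degrades the messenger made by cGAS, at -1.16. In 2 of the 24, Nlrc3 and Ifi204, all tau libraries were below all amyloid libraries, beside 6.67% of all genes.

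**Figure D5:**
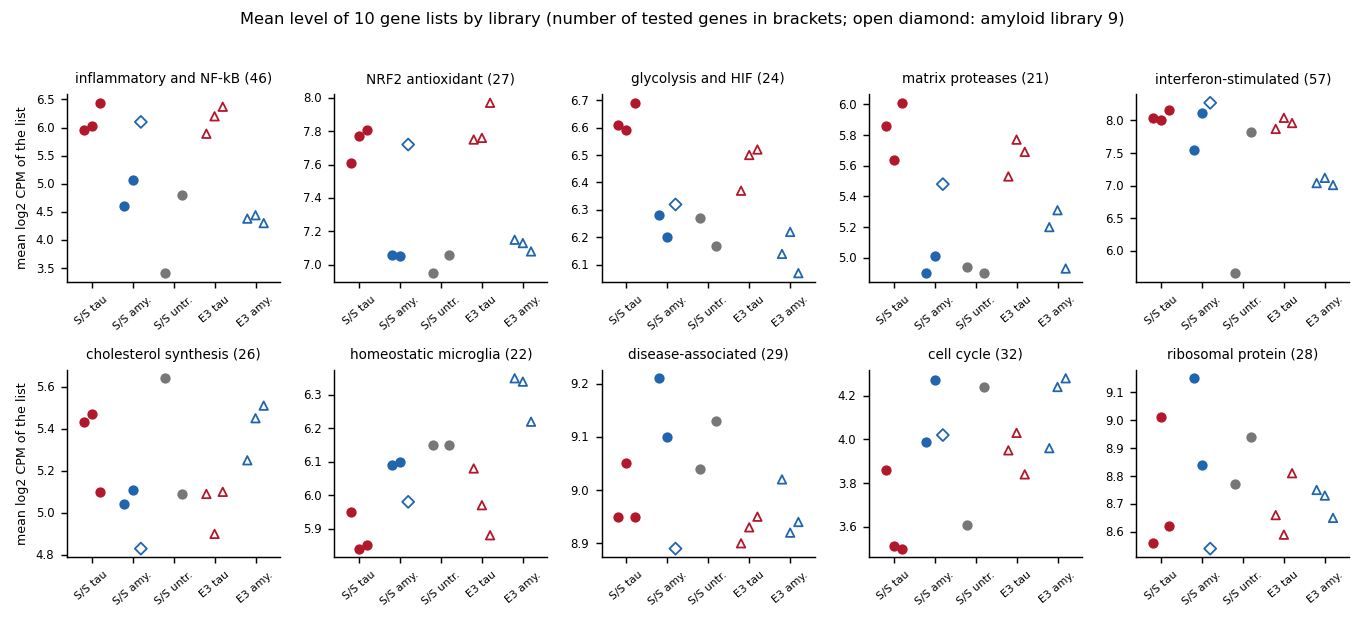
Mean log2 CPM (y axis) of the tested genes of 10 lists in each library, by genotype and treatment (x axis; S/S is APOE3S/S, E3 is APOE3); the open diamond is APOE3S/S amyloid library 9. The diamond is at the tau level in the inflammatory (6.10) and NRF2 (7.72) lists, below it in the glycolysis list (6.32), and the highest of the 6 APOE3S/S treated libraries in the interferon list (8.27).

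Cholesterol synthesis genes were higher with tau in 25 of 26 tested, at a median log2 fold change of 0.29, and none was called with all libraries. The list's mean log2 CPM was 5.43, 5.47 and 5.10 in the tau libraries and 5.04, 5.11 and 4.83 in the amyloid libraries. Amyloid library 9 was the lowest of the 6, and tau library 6 lay within the amyloid range. Untreated libraries, at 5.64 and 5.09, spanned the tau libraries. In 8 of the 26 genes all tau libraries were above all amyloid libraries, which was true of 5.93% of all genes. Without library 9, 1 of 26 was called, higher with tau, close to the 3.22% of all genes. The median of the list was 0.27 without library 9.

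In APOE3 microglia of the same title series, tau against amyloid called 1034 of 14136 genes (7.31%), and between 61 and 572 when 1 of its libraries was left out. The 6 APOE3 libraries are not the ones compared above, but both comparisons use a spread per gene estimated over all groups. The 2 sets of calls are therefore not fully separate tests. The share of all tested genes with the same sign in both genotypes is not given here. Of the 21 genes, 17 were called in APOE3 as well, all in the same direction, and 21 of 21 had the same sign. Of the 452 genes called without amyloid library 9, 273 were called in APOE3 in the same direction and 442 had the same sign (97.8%). The 17 are 81.0% of the 21 and 1.64% of the 1034. The 273 are 60.4% of the 452 and 26.4% of the 1034. Of the genes above, Gatm, Maff, Arhgef10l and Fcrl1 were not called in APOE3, at log2 fold changes of -0.35, 0.27, 0.25 and -0.78.

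The difference between the genotypes was itself tested by the interaction of genotype and treatment. No gene was called (0%) by edgeR, with or without amyloid library 9, by DESeq2 or by limma-voom, and 1030 genes had an unadjusted p under 0.05. A fit of the 12 tau and amyloid libraries alone called 38, and a fit with no low-count filter 461. The genes with the smallest p-values were Creb3l2, Gab1, Hspa2, Lss and Sqle, whose tau minus amyloid difference was more positive in APOE3S/S, and Cycs, Dusp28, Gatm, Scimp and Vill, where it was more negative, all at an adjusted p of 0.657. Lss and Sqle are successive enzymes of sterol synthesis. Lss had 35.3, 32.5 and 27.5 CPM with tau and 21.8, 24.4 and 24.9 CPM with amyloid in APOE3S/S, and 25.7, 23.8 and 26.7 CPM against 33.9, 35.5 and 39.7 CPM in APOE3. In both genotypes the treatments did not overlap, and their order was opposite. Sqle had 44.9, 45.7 and 35.6 CPM against 37.0, 31.4 and 25.1 CPM in APOE3S/S, which overlapped, and 31.9, 22.8 and 28.3 CPM against 42.8, 46.6 and 46.3 CPM in APOE3. The interaction was 0.85 (SE 0.20) for Lss and 1.05 (SE 0.27) for Sqle on the log2 scale.

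Over the cholesterol synthesis list the median interaction was 0.72, and 20 of 26 genes had an unadjusted p under 0.05 for a positive interaction, none for a negative one. Over all genes the median was -0.02, and 1030 of 14136 had an unadjusted p under 0.05 in either direction. Without amyloid library 9 the list's median was 0.58, with 19 of 26 at an unadjusted p under 0.05, beside 849 of 14046 genes. In APOE3 the list's median log2 fold change of tau against amyloid was -0.42, with 3 of 26 genes called lower. Of all genes, 7.31% were called there in either direction. The inflammatory list had a median interaction of -0.89 with library 9 and -0.30 without it, and in APOE3 34 of its 46 genes were called higher with tau. The interferon list had a median interaction of -0.76, and -0.70 without library 9. An unadjusted p under 0.05 was found for 12 and 1 of its 57 genes, all for a negative interaction. In APOE3 its median log2 fold change was 0.80, with 4 of 57 genes called, close to the 7.31% of all genes. APOE3 amyloid libraries lay at 7.04, 7.12 and 7.01 in mean log2 CPM of that list, below all APOE3S/S amyloid libraries. None of these list differences rests on a called gene.

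Of the other lists, heparan sulfate enzymes with APOE and tau receptors had 1 gene called (Sdc4) of 25, amyloid receptors and degrading enzymes 1 of 27 (Cd14), immediate-early genes 2 of 26 (Ier3 and Maff) and alternative activation genes 1 of 18 (Tgm2). With all libraries 0.149% of all genes were called. Without library 9 these lists had 5, 6, 3 and 1 genes called, beside 3.22% of all genes. No gene was called in the lists of class I or class II antigen presentation, lipid and LXR or PPAR genes, lysosome and phagocytosis, complement, oxidative phosphorylation, the unfolded protein response or heat shock with all libraries. Without library 9 those lists had, in that order, 0 of 24, 1 of 9, 5 of 27, 4 of 38, 2 of 19, 0 of 30, 1 of 26 and 1 of 17 genes called, beside 3.22% of all genes. Among them Acsl1, a fatty acid activating enzyme, had 276, 207 and 382 CPM with tau and 61.0, 103 and 332 CPM with amyloid, and H2-Ab1, a class II chain, had 1.92, 3.13 and 3.81 CPM against 0.283, 0.359 and 2.89 CPM. In both, library 9 lay within the tau range and libraries 7 and 8 below it.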

How the data were processed

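Counts per gene were deposited by the authors in 1 table for tau and 1 for amyloid, with the same untreated libraries in both; the kit was QuantSeq 3′ FWD on total RNA, per the labels' protocols. DESeq2 1.38.3 and GRCm38 are named per the submitters' processing notes, while no source used here names the aligner or counter. Of 60976 entries per table, 6360 without numbers, 153 exact repeats, 33 lower entries of a shared symbol and 6 entries of 3 date-like symbols were left out. The 17 SAN libraries were fitted as 6 groups in edgeR 4.0.16 (TMM scaling, low-count filter by group, quasi-likelihood F test, R 4.3.3), and adjusted p-values cover all genes tested. SE is the log2 fold change divided by the root of F. CPM uses the library total, and log2 CPM a prior count of 2. Since the libraries read 3′ ends, a gene is compared between samples and levels are not compared between genes. Alternatives used DESeq2 1.42.0, limma-voom (limma 3.58.1), other scaling, filters and samples. The fit was tested on simulated data.

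Genes were named by rule: the 10 highest and 10 lowest log2 fold changes among called genes averaging 5 CPM or more in the 6 libraries, 11 preset genes, per list the 3 genes lowest in p (25 lists), and for the interaction the 5 smallest p-values per direction. The same rule was applied without amyloid library 9 after its values were seen, and other genes in the text were chosen after their values were seen. Members and lists were chosen with earlier results of these data known. Coordinates are from GENCODE M21 (GRCm38). Replicate numbers shared by the genotypes were not used as pairs in the main fit, since deviations of same-numbered libraries correlated weakly. With so few libraries per group, that check cannot show that the samples were unpaired. A few genes are not reported here by name.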

Additional observations from a re-analysis of the deposited data

How the results depend on the processing

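The count of genes called for tau against amyloid in APOE3S/S was 21 in the fit reported. It was 159 with DESeq2, 487 with no low-count filter, 2 with the 6 libraries alone and 0 with the 8 APOE3S/S libraries alone (885 at an unadjusted p under 0.05), and ran from 0 to 452 when 1 library was left out. Leaving out amyloid library 9 and tau library 5 together, an alternative chosen after seeing the data, gave 422. The 21 genes were all called by DESeq2 and with RLE scaling, and 19 of them by limma-voom. For the interaction the count was 0, and it was 461 with no low-count filter, 38 with the 12 tau and amyloid libraries alone, and 0 in every fit with 1 library left out. The interaction fitted with the replicate number as a block also called 0 genes (1072 at an unadjusted p under 0.05). Correlations of the deviations of same-numbered libraries between the genotypes ran from -0.07 to 0.14, and not every library correlated best with its own number. Tau and amyloid libraries share no number, so no paired analysis of that comparison was possible because their numbers do not match. Tau against untreated called 663 genes, 1192 with DESeq2, 1598 with no low-count filter and 7 to 1536 with 1 library left out. Amyloid against untreated called 0, 26 with DESeq2, 853 with no low-count filter and 0 to 861 with 1 library left out. Of 83 genes named for tau against amyloid, 3 changed sign in 7 of 1153 refits, none of them called in any of those. Mki67 was 0.04 with limma-voom, 0.51 without amyloid library 9 and tau library 5, and -0.25 to 0.31 with 1 library left out. With 1 library left out, Irf7 ran from -0.02 (without amyloid library 7) to 0.19, and Mb21d1 from -0.11 (without amyloid library 7) to 0.19. Of 200 recomputed list medians, 15 moved by more than the spread between replicates. Fits with 1 untreated library assume that it varies like the other groups. The cause of these changes was not tested.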
